A study of Mus musculus with 10 samples.

Results

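The 5 libraries described here hold RNA of ileal epithelium, the cell sheet that lines the end of the mouse small intestine, and were chosen because their labels call them WT. They are 5 of the 10 libraries of the series. Each came from 1 mouse that carried the floxed H2-Ab1 gene on both chromosomes (H2-Ab1 fl/fl) and lacked Villin:Cre, the transgene that puts the recombinase in intestinal epithelium, so the gene was meant to stay intact. From each, 400000 live cells, negative for CD45 and positive for EpCAM, were sorted. WT 2, WT 4 and WT 6 were males, and WT 8 and WT 10 were females. The labels used here give no age, strain background or treatment. The floxed sites are an alteration that all 5 mice share, and the libraries of Cre-positive mice were not compared with these.

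The lining of the ileum is renewed from stem cells at the base of crypts, whose daughters divide, move up the villus and are shed at its tip. Most become absorptive enterocytes, which carry digestive enzymes on a brush border of microvilli, package dietary fat into lipoproteins and, in the ileum, take up bile acids. The others include goblet cells, which secrete mucus, Paneth cells, which secrete antimicrobial peptides at the crypt base, hormone-secreting enteroendocrine cells and chemosensory tuft cells. Along the villus the same enterocyte changes its genes, with purine-handling genes such as Ada and Nt5e and the apolipoprotein gene Apoa4 known as genes of the tip, and the antimicrobial lectin genes Reg3b and Reg3g known from its lower part.

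The deposited table gave raw counts for 13932 genes, and totals ran from 9469663 in WT 4 to 12400180 in WT 10. Levels below are in CPM, a gene's counts per 1000000 counts of its library, scaled with TMM factors that ran from 0.879 to 1.15, and a biological coefficient of variation (CV) is the spread of a gene's CPM among the 5 mice after the part due to counting is taken out, divided by its mean. No pair of libraries agreed within sampling noise (chi-square over its degrees of freedom 18.4 to 130). Replicates here are mice, with no mention of shared litters or days.

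The sorted cells carried the transcripts that their label calls for. Epcam, the gene of the sorting marker, was at 1771 ± 232 CPM (SD, n = 5, as for all values given this way below), and the adherens junction gene Cdh1 was at 817 ± 61.8 CPM. Vil1, which encodes the microvillus protein villin, was at 4355 ± 940.5 CPM, and Fabp6, the bile acid carrier that marks ileal enterocytes, was at 842 ± 423 CPM. Muc2, the main mucin of goblet cells, was at 1451 ± 1572 CPM, Lyz1, the lysozyme of Paneth cells, at 297 ± 217 CPM, and Olfm4, a gene of crypt stem cells, at 335 ± 216 CPM. All 5 markers were present in every library. In bulk RNA, fewer cells of a type and less RNA per cell cannot be told apart, here and in every list below.

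Markers that define other cells were at low levels or not listed. Genes that are not listed have no value here, so their levels are unknown. General leukocyte genes held 0.00278% ± 6.18e-04 of counts (4 of 15 listed), 81.0% of it from Cytip, an adaptor protein, at 23.1 ± 9.10 CPM. Ptprc, which encodes CD45, was at 0.536 ± 0.170 CPM, from 0.360 in WT 4 to 0.780 in WT 6. Of 21 T cell genes only Lck and Gzma were listed, with 5.32e-05% ± 4.23e-05 of counts (3.48e-05% without WT 4), and Cd3e was not among the listed genes. B and plasma cell genes held 2.03e-04% ± 1.36e-04 of counts (3 of 15 listed, mostly Igha at 1.42 ± 1.21 CPM). Macrophage genes held 0.00216% ± 6.07e-04 (5 of 15 listed, mostly Itgam at 12.7 ± 4.15 CPM), fibroblast and smooth muscle genes 0.00107% ± 2.48e-04 (4 of 18), endothelial genes 0.00112% ± 2.66e-04 (6 of 14, with Pecam1 at 0.688 ± 0.521 CPM) and nerve and glial genes 0.00133% ± 5.48e-04 (3 of 12, mostly Ret at 12.1 ± 6.09 CPM). Red cell genes held 0.00857% ± 0.00137 (6 of 8), mostly Bpgm, an enzyme of red cell glycolysis, at 74.3 ± 7.52 CPM. So 4 genes of these lists, Cytip, Itgam, Ret and Bpgm, had a mean of at least 10 CPM, and the part of other cells in their counts was not tested. The haemoglobin gene Hbb-bs had a mean below 10 CPM. It was at 16.9, 9.13 and 13.2 CPM in the males and 0 and 0.179 CPM in the females. Males and females did not overlap for Hbb-bs. The haemoglobin genes are near-identical copies, so their counts are uncertain gene by gene.

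**Figure D1:**
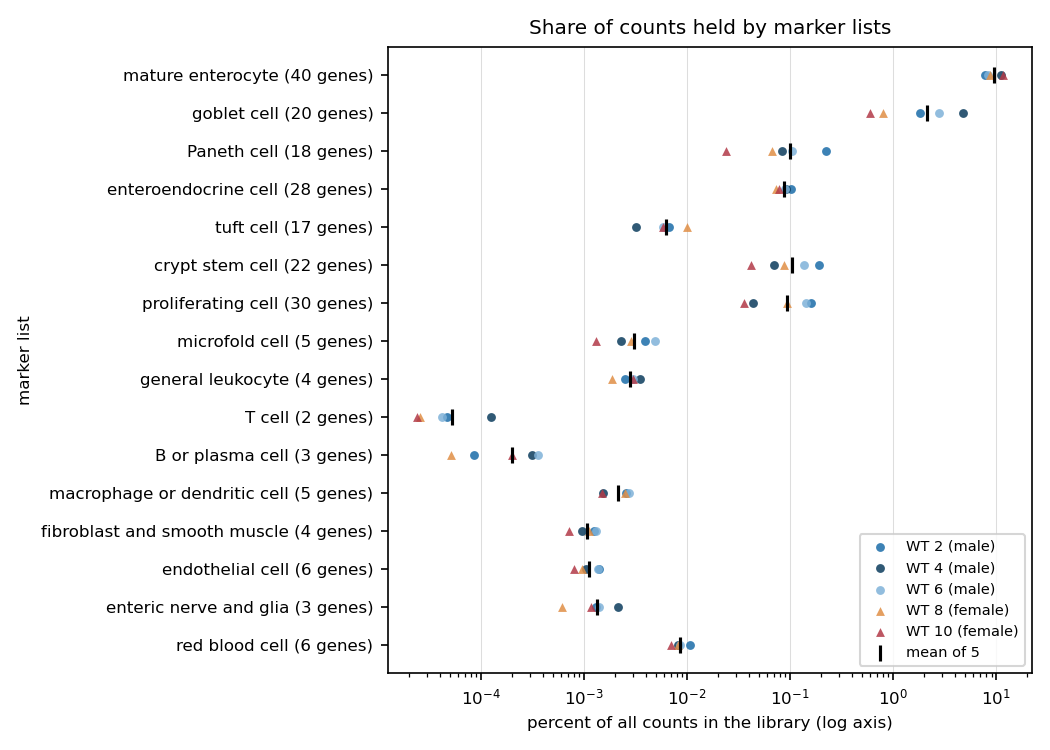
Percent of all counts (log axis) held by each marker list in each of 5 WT libraries, with circles for males, triangles for females and a black bar for the mean. The mature enterocyte list lies between 7.76% and 11.6%, and each list of another cell type lies near or below 0.01%. The epithelial tuft (mean 0.00633%) and microfold (mean 0.00306%) lists lie in that low range too.

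The resting ileal transcriptome was led by genes of fat export, of the brush border and of mucus, beside mitochondrial and structural RNA. Among the listed genes, mt-Co1, a respiratory chain subunit encoded by the mitochondrion, had the highest mean level over the 5 libraries. It had 10546 CPM in WT 2, 11677 in WT 4, 11141 in WT 6, 14438 in WT 8 and 16806 in WT 10. The 10 genes of highest mean CPM held 9.02% ± 1.51 of all counts, the top 100 held 26.9% ± 2.60 and the top 1000 held 58.7% ± 2.64. At least 1 CPM was reached by 12189 genes, 10 CPM by 8438, 100 CPM by 2128 and 1000 CPM by 110, and those 110 genes together held 27.9% of counts. Protein-coding genes held 95.1% ± 0.513 of counts and long intergenic RNAs 2.07% ± 0.388.

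Fat handling supplied 5 of the 25 genes of highest level. Apob, the structural protein of chylomicrons, stood at 11731 ± 4682 CPM, with 7440.2 CPM in WT 2, 17271 in WT 4, 9061 in WT 6, 8539 in WT 8 and 16341 in WT 10. Apoa1, an apolipoprotein of chylomicrons and of high-density lipoprotein, had 6078 CPM in WT 2, 12202 in WT 4, 7389 in WT 6, 5805 in WT 8 and 10924 in WT 10. Fabp2, which carries fatty acids inside enterocytes, had 3668 CPM in WT 2, 6969 in WT 4, 4577 in WT 6, 9337 in WT 8 and 7871 in WT 10. Apob and Apoa1 were highest in WT 4 and WT 10, whereas Fabp2 was highest in WT 8. Apoa4, another chylomicron apolipoprotein, ranged more widely, from 1684 CPM in WT 8 and 2165 in WT 2 through 5014 in WT 6 to 9375 in WT 10 and 11092 in WT 4. Mttp, which loads lipid onto apolipoprotein B, was at 3425 ± 896 CPM and peaked in WT 10.

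Brush border enzymes were the next group. Anpep, a peptidase that trims peptides at the cell surface, stood at 8222 ± 1760.4 CPM, and the disaccharidase genes Sis, Lct and Mgam, for sucrase-isomaltase, lactase and maltase-glucoamylase, at 4141 ± 1602, 4087 ± 2105 and 3329 ± 537 CPM. Ace, which encodes angiotensin-converting enzyme, was at 3733 ± 2075 CPM. The enzymes did not share 1 order of libraries. Lct had 2410.5 CPM in WT 2, 6042 in WT 4, 3104 in WT 6, 2215 in WT 8 and 6661 in WT 10, so WT 4 and WT 10 stood above the other 3, and Ace had the same pair on top. Sis had 2910.4 CPM in WT 2, 3960.2 in WT 4, 2299 in WT 6, 5881 in WT 8 and 5655 in WT 10, which put WT 8 with WT 10 on top, and Mgam stayed within 2587 to 3822 CPM. The microvillus genes Actb (the gene of beta-actin, 7248 ± 476 CPM), Vil1 and Cdhr2 (a cadherin that links microvilli, 3365 ± 1322 CPM) were also among the 25.

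Mucus and defence genes among the 25 were Fcgbp (11485 ± 11806 CPM), a protein of the mucus gel, Zg16 (3667 ± 3101 CPM), a lectin that binds bacteria in mucus, and Pigr (2849 ± 397 CPM), the receptor that carries immunoglobulin A across the epithelium. Fcgbp had 7730.1 CPM in WT 2, 31139 in WT 4, 13153 in WT 6, 2526 in WT 8 and 2875 in WT 10, and Zg16 had 2772 CPM in WT 2, 8730.2 in WT 4, 4305 in WT 6, 1445 in WT 8 and 1083 in WT 10. The SD of Fcgbp exceeded its mean. Both genes were highest in WT 4 and lowest in WT 8 and WT 10, and without WT 4 their means were 6571 and 2401 CPM. Pigr varied little, from 2166 CPM in WT 8 to 3165 in WT 2. Other protein-coding genes among the 25 were mt-Co1, Selenop (a selenium transport protein), Lgals4 (a lectin of the brush border) and P4hb (a disulfide isomerase of the endoplasmic reticulum).

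The others were RNAs that code for no protein. The gene model Gm26917 (chromosome 17, 39843013 to 39846341 on GRCm38) had 12228 ± 3300.2 CPM and lies beside Gm42418 (39846958 to 39848788; 2112 ± 874 CPM), which RefSeq lists as a synonym of Rn18s-rs5, a gene named for ribosomal RNA. The kit removes ribosomal RNA, so the level of such genes also depends on that step. Rmrp, the RNA of a ribonuclease, had 5523 ± 1005 CPM, the mitochondrial ribosomal RNA mt-Rnr1 had 7070.4 ± 2719 CPM, and the nuclear RNA Malat1 had 4425 ± 1142 CPM.

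**Figure D2:**
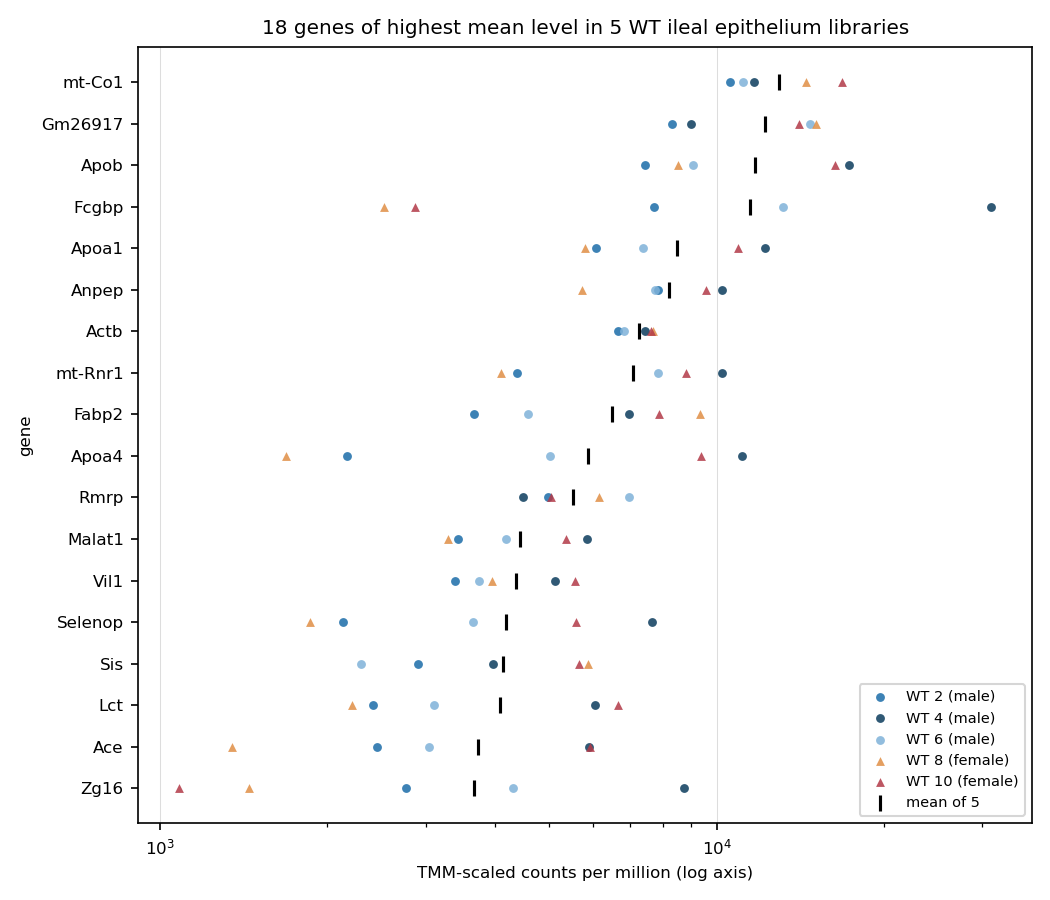
TMM-scaled CPM (log axis) of the 18 genes of highest mean level in each of 5 WT libraries, with circles for males, triangles for females and a black bar for the mean. Actb stays within 6657 to 7695 CPM, whereas Fcgbp runs from 2526 in WT 8 to 31139 in WT 4.

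Counts favour long transcripts, so levels between genes were also compared per length, as counts per kilobase of exon, scaled to a sum of 1000000 in every library (the length-scaled level). Of the 25 leading genes, 13 were the same on both scales. Per length, Apoa1 (19120 ± 5188) and Fabp2 (18616 ± 5519) led the protein-coding genes of the nucleus, ahead of Apoa4 (8802 ± 5808), the trefoil peptide gene Tff3 (8471 ± 6026), Zg16 (8196 ± 6401) and Actb (7659.7 ± 447). Apob, with a long transcript, had a length-scaled level of 2331 ± 745, and Fcgbp of 3054 ± 2913, and neither was among the 25 on that scale. Short genes that entered were Fabp1, a fatty acid carrier (7311 ± 3805), Reg3b (6426 ± 4309.5) and Fabp6 (5009 ± 2458). The small RNAs Rmrp and Gm23935 had the highest values of all, 58111 ± 12725 and 47758 ± 20131. Both are short, so a division by exon length raises them most.

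Marker lists of the lineages held the following shares of counts. The 40 genes of mature enterocytes held 9.46% ± 1.73 of counts, with 7.76% in WT 2, 11.1% in WT 4, 8.29% in WT 6, 8.62% in WT 8 and 11.6% in WT 10. Lists differ in size and in how abundant their genes are, so shares were compared between libraries and not between lineages. WT 4 and WT 10 stood above the other 3 for enterocytes. The text below counts the members of a list that were highest or lowest in a library. The same was counted over all 8438 genes of at least 10 CPM. Those highest numbered 813 in WT 2, 2194 in WT 4, 623 in WT 6, 2674 in WT 8 and 2134 in WT 10. Those lowest numbered 1749 in WT 2, 1795 in WT 4, 1346 in WT 6, 2207 in WT 8 and 1341 in WT 10.

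The goblet cell list (20 genes listed) held 2.15% ± 1.68, of which Fcgbp made up 51.6%. Its share was 1.84% in WT 2, 4.72% in WT 4, 2.80% in WT 6, 0.803% in WT 8 and 0.595% in WT 10, so the highest library had 7.93 times the lowest and the SD was close to the mean. The list did not move as 1 block. Muc2 had 898 CPM in WT 2, 4109.7 in WT 4, 1578 in WT 6, 354 in WT 8 and 314 in WT 10, Tff3 had 1199 CPM in WT 2, 3162 in WT 4, 1992 in WT 6, 587 in WT 8 and 440.3 in WT 10, and Clca1, a secreted mucus protease, had 1776 CPM in WT 2, 4528 in WT 4, 2946 in WT 6, 1235 in WT 8 and 1091 in WT 10. Agr2, a disulfide isomerase that folds mucin, had 472 CPM in WT 2, 450.4 in WT 4, 731 in WT 6, 513 in WT 8 and 158 in WT 10, and Spink4 had 279 CPM in WT 2, 216 in WT 4, 373 in WT 6, 302 in WT 8 and 83.9 in WT 10. Of the 20 genes 13 were highest in WT 4 and 17 lowest in WT 10, but Agr2 and Spink4 were highest in WT 6 and lower in WT 4 than in WT 8, while Muc2 was far higher in WT 4 than in WT 8. Genes with over 8000 bases of exon held 24.9% of counts in WT 4 and 18.4% in WT 8, and their part in this difference was not tested.

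Crypt genes ran in another order. Paneth cell genes (18 of 23 listed) held 0.1004% ± 0.0745 of counts, with 0.222% in WT 2, 0.0840% in WT 4, 0.106% in WT 6, 0.0666% in WT 8 and 0.0238% in WT 10. Lyz1 had 630.3 CPM in WT 2, 327 in WT 4, 304 in WT 6, 174 in WT 8 and 50.5 in WT 10, and the alpha-defensin gene Defa24 had 491 CPM in WT 2, 233 in WT 4, 222 in WT 6, 153 in WT 8 and 56.8 in WT 10. Of 11 Paneth genes of at least 10 CPM, 9 were highest in WT 2 and 10 were lowest in WT 10, and Ang4, a ribonuclease with antimicrobial activity, kept 45.7 CPM in WT 10 against 49.9 in WT 2. Alpha-defensins are near-identical copies whose reads can be shared, so single defensin levels are uncertain.

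Stem cell genes (22 listed) held 0.105% ± 0.0584, and genes of dividing cells (30 listed) held 0.0944% ± 0.0555. Olfm4 had 654 CPM in WT 2, 245 in WT 4, 435 in WT 6, 252 in WT 8 and 90.5 in WT 10, and Mki67, a protein of dividing cells, had 255 CPM in WT 2, 72.3 in WT 4, 172 in WT 6, 156 in WT 8 and 60.5 in WT 10. WT 2 was highest for 9 of 12 stem cell genes of at least 10 CPM, and WT 10 was lowest for 9. Of 24 genes of dividing cells, 12 were highest in WT 2, the other 12 in WT 6, and 22 were lowest in WT 10. Pcna, a clamp of replicating DNA that is also used in repair, varied less than the others (44.9 to 70.6 CPM, CV 0.172 against a list median of 0.541).

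Enteroendocrine genes (28 of 30 listed) were more even among the mice in their summed share. They held 0.0864% ± 0.0112 of counts, from 0.0724% in WT 8 to 0.101% in WT 2. Single members were less even, and 8 of 15 at 10 CPM or more had a CV above 0.288, the upper quartile of all genes. The list median was 0.329, and 10 of the 15 were lowest in WT 8. Ddc, which makes serotonin from its precursor, was the most abundant (227 ± 59.8 CPM), followed by the hormone genes Nts, for neurotensin (128 ± 36.5 CPM), and Gip, for an insulin-releasing peptide (95.9 ± 44.7 CPM). Gip stood at 21.5 CPM in WT 8 and at 98.6 to 140.4 CPM in the other 4. Tuft cell genes (17 of 20 listed) held 0.00633% ± 0.00243, led by the taste channel gene Trpm5 (12.1 ± 4.16 CPM). Their share was lowest in WT 4 (0.00322%) and highest in WT 8 (0.00999%). Genes of microfold cells, which sample the gut contents, held 0.00306% ± 0.00140 (5 of 8 listed, mostly Pglyrp1).

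Function lists gave shares of counts by cell activity. A gene can be in more than 1 list, so the shares are not parts of a whole. Apob, for example, was the most abundant gene of both the mature enterocyte and the fat absorption list. Fat absorption and chylomicron genes (24) held 4.54% ± 1.07 of counts, brush border enzymes (17 of 18 listed) 3.79% ± 0.536 and microvillus structure genes (22) 2.89% ± 0.227. Nutrient transporters (20) held 0.890% ± 0.144, led by the glucose transporter gene Slc5a1 (2047 ± 635 CPM). Xenobiotic enzymes and pumps (38) held 1.34% ± 0.281, led by the carboxylesterase gene Ces2e (1624 ± 412 CPM). Tight junction and adhesion genes held 1.31% ± 0.0516, from 1.27% to 1.40%.

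Ileal bile acid genes held 0.275% ± 0.0395. Fabp6 made up 31.3% of them and had 674 CPM in WT 2, 404 in WT 4, 1032 in WT 6, 1482 in WT 8 and 618 in WT 10. The basolateral export genes Slc51a and Slc51b had 357 ± 105 and 165 ± 33.5 CPM, and Slc10a2, the apical uptake transporter, had 27.2 ± 7.85 CPM. Fabp6, Slc51a and Slc51b were each highest in WT 8, while Abcc2, an apical export pump, was highest in WT 10 and WT 4 (1031 and 1002 CPM) and lowest in WT 2 (341 CPM).

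In the ribosomal protein and nuclear respiratory chain lists, most members differed between libraries in a common direction. Cytoplasmic ribosomal protein genes (81 of 82 listed) held 0.574% ± 0.252, with 0.759% in WT 2, 0.305% in WT 4, 0.693% in WT 6, 0.813% in WT 8 and 0.299% in WT 10. Of 55 at 10 CPM or more, 45 were highest in WT 8, 36 lowest in WT 10 and 19 lowest in WT 4. Nuclear genes of the respiratory chain held 1.27% ± 0.356, and 47 of 49 were highest in WT 8, with 42 lowest in WT 4. Atp5b, a subunit of ATP synthase, had 2148 CPM in WT 2, 1789.8 in WT 4, 1978 in WT 6, 2962 in WT 8 and 2536 in WT 10. The mitochondrially encoded mRNAs (7 of 13 listed) held 1.83% ± 0.284, and 6 of the 7 were highest in WT 10 and 1 in WT 8. Their lowest libraries were mixed, with 3 lowest in WT 6, 2 in WT 8, 1 in WT 2 and 1 in WT 10. The 6 that are not listed have no value here, so this share covers only a part of these mRNAs. Ribosomal protein genes are short and have many processed copies, so their levels depend on how multiply placed reads were handled, which is not given in the sources used here.

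Nutrient transporters were mostly highest in WT 10 or WT 4. Slc5a1, which takes up glucose with sodium, had 1455 CPM in WT 2, 2218 in WT 4, 1444 in WT 6, 2142 in WT 8 and 2974 in WT 10. Slc15a1, the transporter of small peptides, had 767 CPM in WT 2, 1649 in WT 4, 931 in WT 6, 914 in WT 8 and 1465 in WT 10, and Slc6a19, which takes up neutral amino acids, had 558 CPM in WT 2, 1686 in WT 4, 803 in WT 6, 923 in WT 8 and 1349 in WT 10. WT 4 and WT 10 were the 2 highest libraries for each. Of 19 transporters at 10 CPM or more, 9 were highest in WT 10 and 6 in WT 4.

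Detoxifying enzymes were highest in WT 8 for 21 of 37 genes and in WT 10 for 12. Ces2e had 1175 CPM in WT 2, 1669 in WT 4, 1276 in WT 6, 2188 in WT 8 and 1813 in WT 10. Ugt1a1, which couples glucuronic acid to bilirubin and drugs, had 502 CPM in WT 2, 447 in WT 4, 389 in WT 6, 890.1 in WT 8 and 637 in WT 10. Its neighbour Ugt1a7c shares exons with it, and the same reads may count for both. Of the 37 genes, 32 had a CV above 0.288, the upper quartile of all genes.

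Genes of the endoplasmic reticulum that fold secreted proteins also peaked in WT 8. The unfolded protein response list (22 genes) held 0.813% ± 0.199 of counts. Hspa5, the main chaperone there, had 761 CPM in WT 2, 539.9 in WT 4, 802 in WT 6, 1276 in WT 8 and 653 in WT 10, and Canx, a chaperone of glycoproteins, had 863 CPM in WT 2, 569 in WT 4, 738 in WT 6, 1342 in WT 8 and 688 in WT 10. WT 8 was highest for 17 of 22 genes and WT 4 lowest for 13. Cholesterol synthesis genes (23) held 0.181% ± 0.0437, and 18 of 22 at 10 CPM or more were highest in WT 8. Hmgcs1, an early enzyme of the pathway, had 250.4 CPM in WT 2, 193 in WT 4, 212 in WT 6, 325 in WT 8 and 146 in WT 10.

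Fat oxidation genes (26) held 0.464% ± 0.0661. Hadha, a mitochondrial enzyme of fatty acid breakdown, had 426 CPM in WT 2, 447 in WT 4, 443 in WT 6, 705 in WT 8 and 629 in WT 10. Hadha was thus highest in WT 8 and WT 10, and of 23 genes at 10 CPM or more 12 were highest in WT 8 and 7 in WT 10.

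Transcription factors of the intestine were more even in their summed share, while their median CV was 0.214 against 0.193 for all genes. The list (26 of 27 listed) held 0.448% ± 0.0315 of counts. Hnf4a, a main regulator of enterocyte genes, had 846 CPM in WT 2, 1024 in WT 4, 861 in WT 6, 803 in WT 8 and 857 in WT 10 (CV 0.0956). Isx, a homeobox factor that restrains carotene uptake, stayed within 148 to 171 CPM (CV 0.0546). Klf4, a factor of differentiated cells and also an immediate early gene, had 164 CPM in WT 2, 532 in WT 4, 273 in WT 6, 155 in WT 8 and 297 in WT 10 (CV 0.535). Creb3l3, which drives apolipoprotein genes, had 341 CPM in WT 2, 884 in WT 4, 465 in WT 6, 537 in WT 8 and 901 in WT 10.

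Some keratins and immediate early genes also differed between libraries. Krt20, a keratin of mature cells, had 1145 CPM in WT 2, 2360.1 in WT 4, 1656 in WT 6, 1483 in WT 8 and 2099 in WT 10. Krt19 had 1747 CPM in WT 2, 816 in WT 4, 1805 in WT 6, 2659 in WT 8 and 894 in WT 10. WT 4 and WT 10 were the 2 highest libraries for Krt20 and the 2 lowest for Krt19. Fos, a gene induced within minutes of a stimulus, had 481 CPM in WT 2, 903 in WT 4, 573 in WT 6, 480.1 in WT 8 and 561 in WT 10, and the immediate early list (19 of 20 listed) held 0.340% ± 0.0357. WT 4 was highest for 9 of its 16 genes of at least 10 CPM. The median CV of these 16 was 0.223, against 0.193 for all genes. Of the 16, 5 lay above the upper quartile of all genes and 5 below the lower quartile.

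Interferon response genes were lowest in WT 8. Of 14 type I and III response genes at 10 CPM or more, 13 were lowest in WT 8 and 10 were highest in WT 4. Irf7, an interferon-induced factor, had 121 CPM in WT 2, 195 in WT 4, 119 in WT 6, 64.6 in WT 8 and 154 in WT 10, and Stat2, a signal transducer of interferon, had 61.3 CPM in WT 2, 85.4 in WT 4, 62.7 in WT 6, 23.8 in WT 8 and 70.9 in WT 10. Among genes of the interferon gamma response, Irf1 was the most abundant and varied little (233 to 353 CPM, CV 0.144), while the immunity-related GTPase gene Igtp had 48.7 CPM in WT 2, 19.6 in WT 4, 17.6 in WT 6, 6.95 in WT 8 and 19.8 in WT 10.

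Antimicrobial and mucosal defence genes (17 of 24 listed) held 1.37% ± 0.516. Reg3b had 2857 CPM in WT 2, 2048 in WT 4, 4978 in WT 6, 1913 in WT 8 and 725 in WT 10, and Reg3g, its close relative with the same order of libraries, had 2117 CPM in WT 2, 1332 in WT 4, 3499.5 in WT 6, 1033 in WT 8 and 358 in WT 10. Class I antigen presentation genes (25 of 26 listed) held 0.589% ± 0.0348, from 0.546% in WT 8 to 0.636% in WT 2. H2-K1, a classical class I gene with close relatives, had 918 CPM in WT 2, 1466 in WT 4, 945 in WT 6, 760.1 in WT 8 and 1328 in WT 10. The class II genes (7 of 10 listed) held 0.0665% ± 0.0603, with 0.168% in WT 2, 0.0513% in WT 4, 0.0689% in WT 6, 0.0165% in WT 8 and 0.0279% in WT 10, and a mean of 0.0411% without WT 2. The floxed gene itself, H2-Ab1 (ENSMUSG00000073421, chromosome 17, 34257689 to 34269419 on GRCm38), the beta chain of a class II molecule, had 365 CPM in WT 2, 245 in WT 4, 234 in WT 6, 63.1 in WT 8 and 129.5 in WT 10. All 7 class II genes were highest in WT 2, and 6 were lowest in WT 8.

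Among 8438 genes with a mean of at least 10 CPM, the median biological CV was 0.193, with quartiles of 0.123 and 0.288. A CV of at least 0.5 was found for 368 genes (4.36%) and of at least 1 for 18, while 1425 (16.9%) had a CV under 0.1. For 163 genes the spread did not exceed counting error. Of the 368 genes of high spread, 133 were highest in WT 4, 76 in WT 6, 73 in WT 2, 52 in WT 10 and 34 in WT 8. In addition, 161 of the 368 were lowest in WT 10 and 115 in WT 8. Over all 8438 genes, 2194 were highest in WT 4, 1341 lowest in WT 10 and 2207 lowest in WT 8. With 5 mice each CV is itself imprecise.

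**Figure D3:**
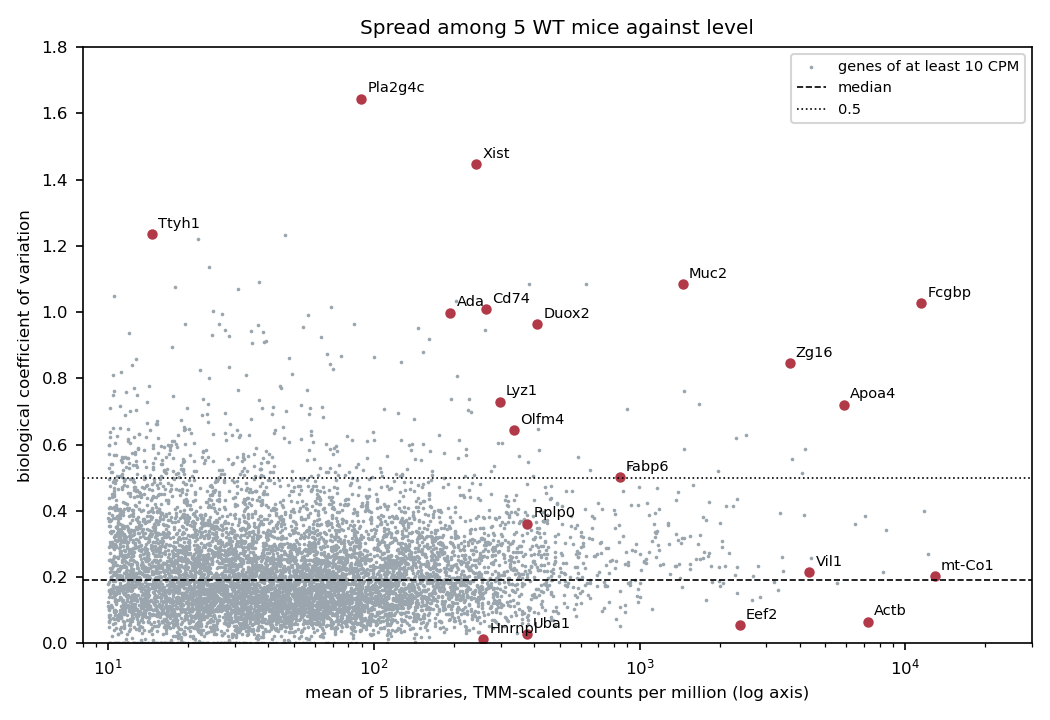
Biological coefficient of variation among 5 WT libraries against mean TMM-scaled CPM (log axis), with 1 point per gene of at least 10 CPM, the median as a dashed line and 0.5 as a dotted line. Fcgbp and Muc2 combine high level with a CV above 1, while Actb and Eef2 lie at 0.0655 and 0.0556.

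The 25 genes of highest spread (CV 0.943 and above, with 0.939 for the next) fell into several patterns, and 12 of them were highest in WT 4. In WT 4 the goblet genes Muc2 and Fcgbp were joined by P2ry4, a receptor for extracellular nucleotides, with 16.6 CPM in WT 2, 86.8 in WT 4, 32.8 in WT 6, 9.12 in WT 8 and 8.23 in WT 10. The membrane protein gene Ttyh1 had 9.23 CPM in WT 2, 45.9 in WT 4, 12.9 in WT 6, 2.26 in WT 8 and 2.68 in WT 10, and Ido1, which degrades tryptophan and is inducible by interferon gamma, had 35.5 CPM in WT 2, 145 in WT 4, 37.7 in WT 6, 4.69 in WT 8 and 8.76 in WT 10. All 5 genes were lowest in WT 8 or WT 10. Without WT 4 the means were 786 CPM for Muc2, 16.7 for P2ry4, 6.76 for Ttyh1 and 21.7 for Ido1. The growth factor gene Igf2 (1.92 to 50.6 CPM) and the cation channel gene Trpc1 (1.51 to 28.7 CPM) were also highest in WT 4, with means of 9.71 and 6.01 CPM without it.

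Another set, which holds genes of purine handling, was high in WT 4, intermediate in WT 6 and WT 10, and low in WT 2 and WT 8. Ada, which deaminates adenosine, had 38.9 CPM in WT 2, 505 in WT 4, 206 in WT 6, 24.1 in WT 8 and 195 in WT 10. Slc28a2, which takes up purine nucleosides, had 19.1 CPM in WT 2, 213 in WT 4, 85.4 in WT 6, 10.2 in WT 8 and 93.1 in WT 10. Clca4a, a membrane protein of the enterocyte, had 59.7 CPM in WT 2, 673 in WT 4, 254 in WT 6, 77.8 in WT 8 and 243 in WT 10. Without WT 4 the means were 116 CPM for Ada, 52.0 for Slc28a2 and 159 for Clca4a. Nt5e, which makes adenosine outside the cell, and Enpp3, which cleaves extracellular nucleotides, were chosen after their values were seen. Nt5e had 9.48 CPM in WT 2, 103 in WT 4, 50.1 in WT 6, 5.77 in WT 8 and 71.1 in WT 10, and Enpp3 had 40.8 CPM in WT 2, 348 in WT 4, 135 in WT 6, 22.3 in WT 8 and 216 in WT 10. In each of these 5 genes WT 2 and WT 8 were the 2 lowest libraries.

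WT 2 was highest for Cd74, the invariant chain of class II molecules, with 714 CPM in WT 2, 207 in WT 4, 262 in WT 6, 49.0 in WT 8 and 86.8 in WT 10. H2-Aa, a class II alpha chain, had 142 CPM in WT 2, 39.0 in WT 4, 52.2 in WT 6, 11.6 in WT 8 and 25.1 in WT 10. The defensin-related gene AY761184 had 107 CPM in WT 2, 28.9 in WT 4, 21.5 in WT 6, 19.7 in WT 8 and 6.53 in WT 10. Without WT 2 the means were 151 CPM for Cd74, 32.0 for H2-Aa and 19.2 for AY761184. Ciita, the master regulator of class II genes, was also highest in WT 2 (53.8 CPM against 5.86 to 17.9 in the other 4).

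WT 10 stood apart for a further set. Pla2g4c (ENSMUSG00000033847, chromosome 7, 13324655 to 13360672 on GRCm38), a calcium-independent cytosolic phospholipase, had the highest spread of all named genes (CV 1.64), with 7.005 CPM in WT 2, 3.12 in WT 4, 9.59 in WT 6, 81.4 in WT 8 and 346 in WT 10. Duox2, an oxidase that releases hydrogen peroxide at the surface, had 234 CPM in WT 2, 138 in WT 4, 359 in WT 6, 219 in WT 8 and 1104 in WT 10, and Duoxa2, which Duox2 needs to mature, lay outside the 25 with 19.6 CPM in WT 2, 11.9 in WT 4, 35.6 in WT 6, 23.4 in WT 8 and 101 in WT 10. Sprr2a3, a small proline-rich protein, had 4.78 CPM in WT 2, 12.5 in WT 4, 9.59 in WT 6, 13.0 in WT 8 and 69.0 in WT 10, and Bco1, which cleaves beta-carotene to retinal, had 5.60 CPM in WT 2, 22.2 in WT 4, 18.1 in WT 6, 3.18 in WT 8 and 70.2 in WT 10. Without WT 10 the means were 25.3 CPM for Pla2g4c, 237 for Duox2, 22.6 for Duoxa2, 9.96 for Sprr2a3 and 12.3 for Bco1, and the CV of Duox2 was 0.383 and of Sprr2a3 0.365.

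Some genes of high spread were higher in WT 8 and WT 10, the females, than in the 3 males. Of the 368 genes of high spread 27 (7.34%) had both females above all males, against 15.7% of all 8438 genes, and 74 (20.1%) had all males above both females, against 4.6% of all. Cyp1a1, a target of the aryl hydrocarbon receptor, had 10.2 CPM in WT 2, 8.53 in WT 4, 8.34 in WT 6, 30.7 in WT 8 and 66.0 in WT 10. Me1, malic enzyme, had 5.44 CPM in WT 2, 10.2 in WT 4, 9.28 in WT 6, 44.4 in WT 8 and 61.5 in WT 10, and the glutathione transferase gene Gsta1 had 11.8 CPM in WT 2, 7.81 in WT 4, 6.86 in WT 6, 52.1 in WT 8 and 19.0 in WT 10. The gasdermin genes Gsdmc3 (chromosome 15, 63857724 to 63878558) and Gsdmc4 (63891264 to 63912297) are neighbours and near-identical, so reads may be shared between them. Gsdmc4 had 73.9 CPM in WT 2, 25.3 in WT 4, 66.1 in WT 6, 367 in WT 8 and 199.6 in WT 10, and Gsdmc3 had 11.7 CPM in WT 2, 4.56 in WT 4, 11.9 in WT 6, 44.5 in WT 8 and 65.2 in WT 10. Without their highest library the means were 14.4 CPM for Cyp1a1, 17.3 for Me1, 11.4 for Gsta1, 91.3 for Gsdmc4 and 18.2 for Gsdmc3. Xist, Ddx3y and Uty, genes of the sex chromosomes, completed the 25.

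**Figure D4:**
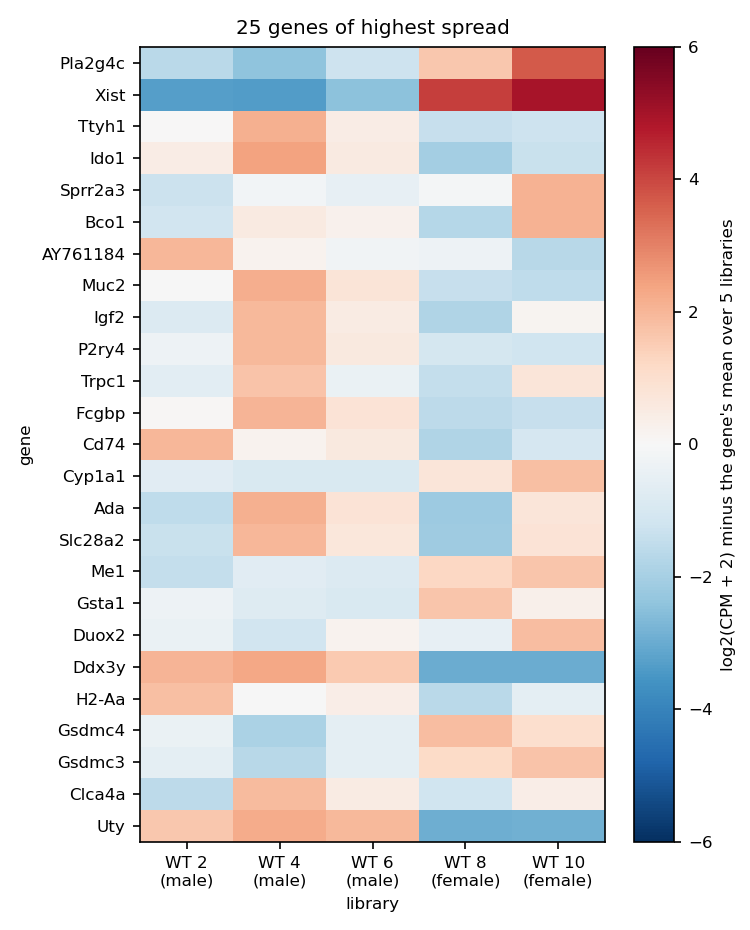
Level of the 25 genes of highest spread in each of 5 WT libraries, as log2(CPM + 2) minus the gene's mean over the libraries, with red above and blue below the mean. Muc2, Fcgbp, P2ry4, Ttyh1 and Ido1 are reddest in WT 4, and the sex chromosome genes Xist, Ddx3y and Uty split WT 8 and WT 10 from the rest.

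At the other end, levels differed among the 5 mice by little more than counting error. For the lowest spread, 2091 genes of at least 100 CPM were ranked. Ppp2r1a (ENSMUSG00000007564, chromosome 17, 20945311 to 20965916 on GRCm38), the scaffold subunit of protein phosphatase 2A, had 116 CPM in WT 2, 111 in WT 4, 113 in WT 6, 111 in WT 8 and 108 in WT 10, a spread within counting error. These levels ran no more than 1.07 times from lowest to highest. Hnrnpl, a splicing regulator, had 260.1 CPM in WT 2, 252 in WT 4, 266 in WT 6, 253 in WT 8 and 258 in WT 10 (CV 0.0127). Cenpb, a centromere protein, Cand1, which exchanges parts of cullin ligases, and Pum2, which represses mRNAs, had CVs of 0.00335, 0.0125 and 0.0186. Uba1, which activates ubiquitin, had 360.0 CPM in WT 2, 377 in WT 4, 368 in WT 6, 380.0 in WT 8 and 392 in WT 10 (CV 0.0288). The last of the 25 had a CV of 0.0401 and the next 0.0402. At 10 CPM or more the lowest also included Dcaf8, a cullin ligase adaptor, Stag1, a cohesin subunit (69.3 to 71.5 CPM), and Otub1, a deubiquitinase (56.8 to 59.6 CPM).

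Common reference genes were unequal in this respect. Actb had 6657 CPM in WT 2, 7422 in WT 4, 6829 in WT 6, 7695 in WT 8 and 7635 in WT 10 (CV 0.0655), and B2m had a CV of 0.110. Eef1a1, Rplp0, Rpl13a and Tfrc had CVs of 0.318, 0.361, 0.440 and 0.506, all above the upper quartile of 0.288 over all genes. Rplp0, a ribosomal protein, had 462 CPM in WT 2, 244 in WT 4, 459.7 in WT 6, 505 in WT 8 and 214 in WT 10, so WT 4 and WT 10 lay below the other 3.

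The printed stretches show the 250 bases before the RefSeq start site of 4 autosomal genes with an entry in the RefSeq table (GRCm38.p6). Pla2g4c and Ttyh1 were first in rank for highest spread. Ppp2r1a and Dcaf8 were first for lowest spread, where many genes were tied at a CV of 0 (163 before gene models were left out). Tied genes were ordered by mean CPM, highest first. Capitals mark each CG, a pair of letters that reads the same on both strands.
Pla2g4c, chr7:13325417-13325666, plus strand: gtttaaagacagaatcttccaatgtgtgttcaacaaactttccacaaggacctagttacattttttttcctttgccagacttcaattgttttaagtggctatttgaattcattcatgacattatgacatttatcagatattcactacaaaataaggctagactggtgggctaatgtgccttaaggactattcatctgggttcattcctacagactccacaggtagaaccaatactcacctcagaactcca
Ttyh1, chr7:4119280-4119529, plus strand: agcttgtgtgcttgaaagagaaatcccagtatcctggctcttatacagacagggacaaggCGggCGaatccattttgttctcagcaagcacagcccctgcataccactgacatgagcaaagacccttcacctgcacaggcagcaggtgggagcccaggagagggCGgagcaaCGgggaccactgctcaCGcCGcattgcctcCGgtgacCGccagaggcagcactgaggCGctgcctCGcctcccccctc
Ppp2r1a, chr17:20945204-20945453, plus strand: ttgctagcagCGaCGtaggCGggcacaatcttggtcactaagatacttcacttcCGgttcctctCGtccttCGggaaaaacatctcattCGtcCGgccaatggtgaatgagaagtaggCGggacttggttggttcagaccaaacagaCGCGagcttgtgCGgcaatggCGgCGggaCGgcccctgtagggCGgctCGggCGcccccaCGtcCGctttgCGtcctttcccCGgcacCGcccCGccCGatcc
Dcaf8, chr1:172147765-172148014, plus strand: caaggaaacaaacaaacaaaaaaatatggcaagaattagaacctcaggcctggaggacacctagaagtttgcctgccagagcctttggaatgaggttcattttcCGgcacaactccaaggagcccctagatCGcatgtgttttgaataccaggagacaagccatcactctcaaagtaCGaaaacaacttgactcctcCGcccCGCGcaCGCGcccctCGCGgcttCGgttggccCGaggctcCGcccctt
The stretch of Pla2g4c holds 0 CG pairs and that of Ttyh1 10, against 25 for Ppp2r1a and 13 for Dcaf8. These numbers hold for the RefSeq start used. By GENCODE gene coordinates, the stretch of Pla2g4c lies inside the gene (13324655 to 13360672). Those of Ttyh1 and Ppp2r1a run past the GENCODE start (4119408 and 20945311), and that of Dcaf8 ends before it. Over windows of 300 bases (250 before to 50 after the start, first listed start per gene), the median number of CG pairs was 22 for the 6692 protein-coding genes of at least 10 CPM with an entry (81.1% of 8251). It was 24 in genes below the lower quartile of spread and 19 in genes above the upper quartile, against 7 over all 27025 windows in the RefSeq table. The letters TATAAA, on either strand, were in 5.58% of windows for genes below the lower quartile (95 of 1703) and in 10.2% for those above the upper quartile (169 of 1661), against 6.99% of all these expressed genes and 14.2% of the RefSeq table. These are descriptions of the windows with no test, and letters in a window are not a shown site.

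Gene lists differed in how evenly their members were held. The lists of highest median CV with 5 or more members at 10 CPM were, after the genes of the sex chromosomes, MHC class II (0.766), antimicrobial defence (0.691), Paneth cell (0.636), goblet cell (0.562), interferon gamma response (0.553) and dividing cell genes (0.541), against 0.193 for all genes. All 7 class II genes, 13 of 15 defence genes, 19 of 20 goblet genes and 23 of 24 genes of dividing cells lay above the upper quartile of all genes. The lowest list medians were those of tight junction and adhesion genes (0.150) and translation factors (0.162). In the tight junction list, Cdh1 had a CV of 0.0749, while Cldn4, a claudin, had 0.829, with 26.4 CPM in WT 2, 168 in WT 4, 65.3 in WT 6, 23.7 in WT 8 and 68.3 in WT 10 and a mean of 45.9 CPM without WT 4.

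**Figure D5:**
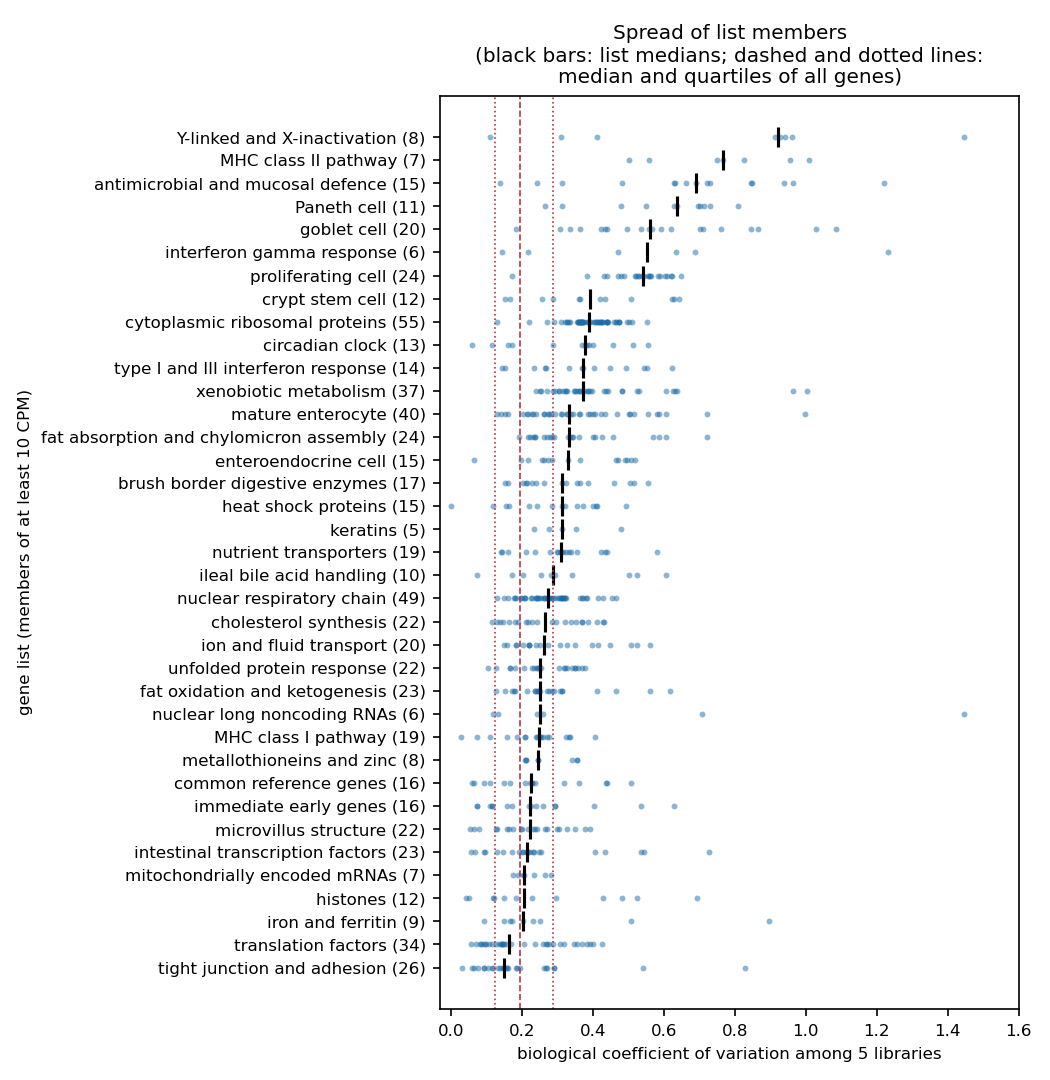
Biological coefficient of variation of each list member with at least 10 CPM (blue points) in lists with 5 or more such members, ordered by list median (black bars), with the median and quartiles of all genes as dashed and dotted red lines. The class II list has a median of 0.766 and the tight junction list 0.150.

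Over genes of at least 10 CPM on a log2 scale, principal component 1 carried 55.4% of the variance and placed WT 4 (31.8) and WT 10 (28.5) opposite WT 8 (-29.8), WT 2 (-20.5) and WT 6 (-9.94). Component 2 carried 32.1% and placed the males at 13.8 to 18.2 and the females at -24.1 and -23.2. Within the 3 males alone, the median CV was 0.151. That value rests on 3 libraries and the 0.193 over all mice on 5, and the part of sex in the difference was not tested.

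Apart from the library number, sex is the one label that differs among these 5 mice. The males hold the numbers 2, 4 and 6 and the females 8 and 10, so sex and number cannot be told apart. Females were compared with males over 12763 tested genes. edgeR's quasi-likelihood test called 5 genes at a Benjamini-Hochberg adjusted p under 0.05 (0.0392% of genes tested), and all 5 are known genes of the sex chromosomes. Xist, the RNA that silences one X chromosome in females, had 0.577 CPM in WT 2, 0.480 in WT 4, 2.57 in WT 6, 438 in WT 8 and 772 in WT 10 (log2 fold change 8.88, SE 0.72, edgeR adjusted p = 0.0155). The Y-linked genes Kdm5d, Uty, Eif2s3y and Ddx3y had 462 to 824 counts in each male and 0 or 1 count in each female. Kdm5d encodes a histone demethylase (edgeR adjusted p = 0.00198), Uty a relative of another demethylase (0.00290), Eif2s3y a translation factor subunit (0.00290) and Ddx3y an RNA helicase (0.00752). The adjusted p of Xist was 0.110 without WT 2 and 0.0834 without WT 4, while the Y-linked genes stayed called without any 1 library.

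No gene outside the sex chromosomes passed edgeR's test. The nearest were Hbb-bs (edgeR adjusted p = 0.0855), Me1 (0.134) and Nos2 (0.217), which makes nitric oxide. DESeq2 called all 3, with adjusted p of 5.48e-08, 2.36e-09 and 1.28e-12, and limma voom gave 0.0922 for each. Nos2 had 266 CPM in WT 2, 139 in WT 4, 189 in WT 6, 26.3 in WT 8 and 13.5 in WT 10, and the highest female lay below the lowest male. Cox7a1, a respiratory chain subunit, had 44.7 CPM in WT 2, 43.5 in WT 4, 37.9 in WT 6, 134 in WT 8 and 99.98 in WT 10 (adjusted p = 0.271 by edgeR and 1.58e-04 by DESeq2). Before adjustment, 723 genes (5.66%) had a p under 0.05. Without WT 8, edgeR also called Pla2g4c and Cyp1a1 (adjusted p = 0.0475 for both), for which the p with all libraries was 0.271 and 0.274 by edgeR and 1.28e-12 and 3.78e-06 by DESeq2. In all, 72 genes (0.564%) had a DESeq2 adjusted p under 0.05, 18 of them higher in females, and by limma voom 5 did.

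In some lists most members differed in 1 direction, though edgeR's test called none of them. Of 20 goblet genes 19 had a lower mean in females (median log2 difference -1.31), as had all 7 class II genes (-1.68) and 28 of 30 genes of dividing cells (-0.75). All 50 nuclear respiratory chain genes tested had a higher mean in females (0.59), as had 36 of 38 xenobiotic genes (0.63). DESeq2 called 6 of the goblet genes, 3 of the class II genes, 2 of the xenobiotic genes and none of the genes of dividing cells or of the respiratory chain, against 0.564% of all genes tested. Over all tested genes, 6672 were higher and 6091 lower in females, with a median of 0.02. With 2 females, sex and other differences between these mice cannot be told apart.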

How the data were processed

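Sorted ileal epithelium of 10 mice was sequenced, and the 5 WT libraries are used here. The kit kept strand and removed ribosomal RNA, per the labels' protocols, and Novoalign and the build mm10 are named in the submitters' processing notes. Values are raw gene counts as the authors deposited them. How reads were assigned to genes, with which annotation and whether by strand is not stated in these sources, so overlapping genes and near-identical copies are uncertain. Of 13932 listed genes, 13729 identifiers matched GENCODE vM21, which gave symbols, exon lengths and GRCm38 coordinates. No symbol was given for 133 genes, and 20 symbols had turned into dates.

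Counts were scaled with TMM (edgeR 4.0.16, R 4.3.3), and shares are percent of each library's total. Spread used genes of at least 10 CPM. Females and males were compared by a robust quasi-likelihood fit in edgeR after filterByExpr, with Benjamini-Hochberg adjustment over 12763 genes. Library totals ran from 9469663 to 12400180 counts. Both computations were tested on simulated counts, where CVs came out somewhat low. There the comparison of sexes missed nearly all changes of 2-fold or less and a part of those of 4-fold.

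The members and the 49 lists (1038 list entries, 891 found) were chosen with earlier results of these data known. Named genes are, by rule, the 25 of highest mean CPM and the 10 of highest count per kilobase, the 25 of highest and of lowest spread without gene models and receptor segments, up to 12 per direction called between the sexes, and up to 6 leading members of each list with the defining markers. The text describes part of these, and genes outside the rule were chosen after their values were seen. A few genes the rule names are not reported here. Alternatives were other denominators, size factors, measures and floors, DESeq2 1.42.0, limma 3.58.1, the males alone and leaving out each library.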

Additional observations from a re-analysis of the deposited data

Results flagged for a closer look

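Among 159 groups of 5 values examined, 11 had 1 library far from the other 4 by Dixon's criterion. Chance flags about 1 in 20 groups that were not chosen by their spread, and that rate does not apply to Pla2g4c, Duox2, Sprr2a3, Bco1, Ido1, Ttyh1, Gsta1 and AY761184, which were named for their high spread among these libraries. WT 10 was the far library for Pla2g4c (346 CPM), Duox2 (1104 CPM), Sprr2a3 (69.0 CPM) and Bco1 (70.2 CPM). WT 4 was far above the others for Ido1 (145 CPM), Ttyh1 (45.9 CPM) and the share of T cell genes (0.000127% of counts, which rests on Lck and Gzma alone). WT 8 was far above for the galectin gene Lgals4 (4240.1 CPM against 2756 to 3106) and Gsta1 (52.1 CPM), and far below for Pigr (2166 CPM against 2911 to 3165). WT 2 was far above for AY761184 (107 CPM).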

How the results depend on the processing

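Of 123 values for the main results under alternatives, 112 stayed within 1 SD between mice or within 1.5 times the count, which leaves room for large moves where the SD is large. Without the 20 genes of highest level in the total, the enterocyte share was 4.09%, the goblet share 0.790% (against 2.15%), the enteroendocrine share 0.0994% and the share of the top 100 genes 18.2%. Per kilobase of exon, the Paneth share was 0.431%, the enteroendocrine share 0.174%, the microfold share 0.00447%, the stem cell share 0.0673% (against 0.105%) and the share of dividing cell genes 0.0575% (against 0.0944%), and 13 of the 25 leading genes were shared. The number of genes with a spread of at least 0.5 was 368, against 1405 by the SD of log2 CPM, 986 with a floor of 1 CPM and 127 with a floor of 50 CPM. DESeq2 called 72 genes between the sexes where edgeR called 5, and all 5 were among the 72. The cause of that difference was not tested.

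Without each library in turn, 293 to 515 genes had high spread, 4 to 7 genes differed between the sexes, 24 or 25 of the leading genes were shared, and shares ran from 8.93% to 9.88% for enterocyte, 1.51% to 2.54% for goblet and 0.0700% to 0.120% for Paneth cell genes. Of the values for other results, 375 of 425 moved by less than the spread. No paired analysis was possible because the 5 mice are of 1 genotype and share no replicate numbers.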

Other observations

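Features left out of the ranking as gene models also varied widely. ENSMUSG00000094393, without a symbol in the sources used here, had 349 CPM in WT 2, 1773 in WT 4, 738 in WT 6, 148 in WT 8 and 140.3 in WT 10, which is the library order of Muc2. The adjacent models Gm10800 and Gm10801 (chromosome 2) shared another order, with 499 CPM in WT 2, 355 in WT 4, 65.6 in WT 6, 89.0 in WT 8 and 13.1 in WT 10 for Gm10800 and 135 CPM in WT 2, 96.3 in WT 4, 21.4 in WT 6, 26.7 in WT 8 and 3.94 in WT 10 for Gm10801. These were chosen after their values were seen.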
